A study of Mus musculus with 6 samples.

Results

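The signaling lymphocytic activation molecule (SLAM) receptors were examined in mouse peritoneal macrophages. The 9 genes were Cd244a, its ligand gene Cd48, and Slamf1, Slamf6, Slamf7, Slamf8, Slamf9, Ly9 and Cd84. They were taken by gene symbol from 23185 named probe sets, 1 probe set each, among 25206 on the array. Cd244a was selected on its log2 difference between Tet2-/- and wild-type arrays, so its genotype values are given as a description, without a test. The others entered as members of the family.

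The arrays compared Tet2-/- macrophages with macrophages of wild-type littermates, 3 samples per genotype, labelled biological replicates 4, 5 and 6. All mice were C57BL/6J. Cells were collected from the peritoneal cavity 4 days after 1 mL of 4% Brewer's thioglycollate, an irritant that draws macrophages into the cavity, and RNA was taken 10 h after plating. No stimulus was added. The labels give neither the animals' age and sex nor the deleted part of Tet2. They call the replicates biological but do not state that every sample came from its own animal. The p-values therefore refer to the spread among these samples, which may be partly technical. Tet2 encodes an enzyme that oxidises 5-methylcytosine in DNA.

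The genotype in the title and the genotype characteristic contradict each other for 4 of the 6 samples. Groups follow the titles, and with the characteristic the Cd244a difference was -0.32 in place of 1.20. Every direction below therefore refers to the samples titled Tet2-/-. Tet2 itself was at 3.84 ± 0.193 in Tet2-/- and 3.96 ± 0.339 in wild-type cells (log2 level, SD, n = 3 each), and because its probes may lie outside the deleted part, this does not check the labels. The array titled Tet2-/- replicate 6 stood apart, with the highest median log2 value, 2.93, against 2.77 to 2.82 in the other 5 arrays. It also had the narrowest interquartile range, 2.99, and, over all probe sets, the lowest mean correlation with the remaining arrays, 0.982. Of 10 measured macrophage markers, 1 lay below the median of every array and 0 lay below the lower quartile of every array. The integrin gene Itgam was among the 10, and so were the colony-stimulating factor receptor gene Csf1r and the surface marker gene Adgre1. Lyz2, another listed marker, was not analysed here.

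SLAM receptors are immunoglobulin-domain proteins of the CD2 superfamily found on blood cells. Most bind a copy of themselves on a neighbouring cell, whereas CD244 binds CD48. Tyrosine motifs in the tails of most members recruit the small adaptors SAP and EAT-2 or, in their absence, phosphatases, so that the same receptor can activate or inhibit. CD244 is best known from natural killer cells, and CD84, CD48 and SLAMF7 are also found on macrophages.

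Cd244a had log2 levels of 5.70, 5.66 and 4.27 in Tet2-/- replicates 4, 5 and 6, against 4.33, 3.96 and 3.73 in wild-type replicates 4, 5 and 6. Tet2-/- replicates 4 and 5 were more than 1 log2 unit above every wild-type array, while replicate 6 lay inside the wild-type range, just under wild-type replicate 4. The groups therefore overlapped. The means were 5.21 ± 0.814 in Tet2-/- and 4.01 ± 0.303 in wild-type cells (SD, n = 3 each), a difference of 1.20 or 2.30-fold. Without Tet2-/- replicate 6 the difference was 1.67, or 3.19-fold. Leaving out each array in turn gave 0.96 to 1.67. In all, 22 probe sets, Cd244a included, or 0.0873% of the array, had a positive difference of at least this size. Because Cd244a was chosen on this difference, that share is a description and carries no test. In these bulk samples a change in RNA per cell and a change in the share of cells that make the RNA cannot be told apart.

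Cd48, the ligand of CD244 and a protein held in the membrane by a lipid anchor, had log2 levels of 8.68, 8.92 and 8.71 in Tet2-/- arrays and 8.69, 8.81 and 8.43 in wild-type arrays. The groups overlapped, with Tet2-/- replicate 5 above every wild-type array and wild-type replicate 6 below every Tet2-/- array. Tet2-/- replicate 6 was not apart from the other Tet2-/- arrays. The difference was 0.13 (95% confidence interval -0.21 to 0.47, limma adjusted p = 0.998), and 0.02 without wild-type replicate 6. The interval for the ligand transcript stayed within 1 log2 unit of 0 on either side.

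**Figure D1:**
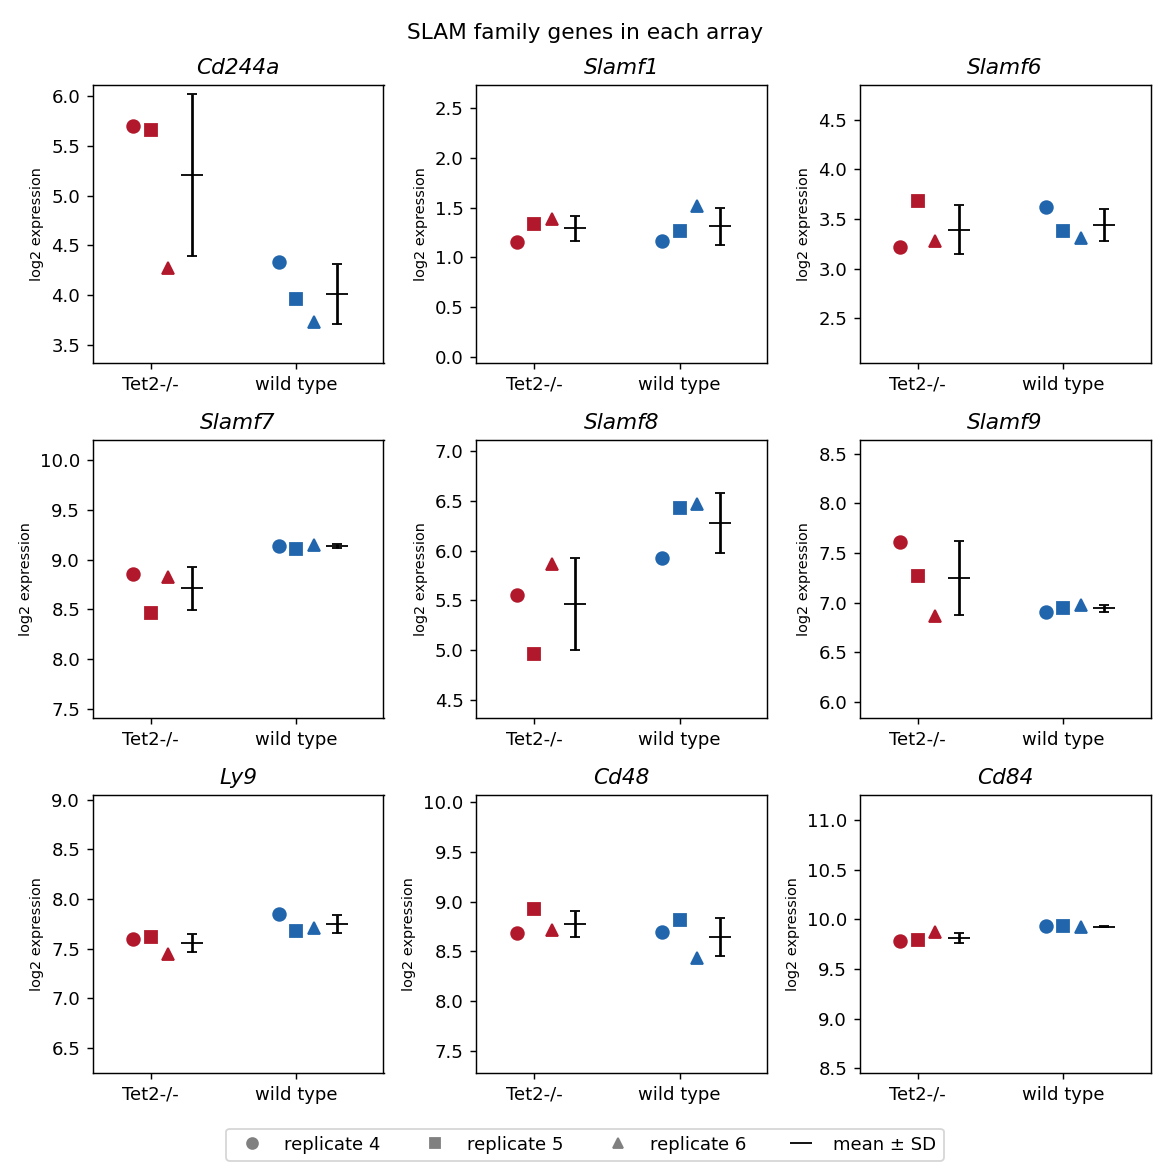
Log2 expression of the 9 SLAM family genes in each array, with Tet2-/- arrays in red on the left and wild-type arrays in blue on the right of each panel. Marker shapes give the replicate number, bars give the mean ± SD (n = 3), and all panels span the same number of log2 units. Cd244a is high in Tet2-/- replicates 4 and 5 only, whereas Slamf7, Slamf8, Ly9 and Cd84 have all Tet2-/- points below all wild-type points.

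Among the self-binding receptors with tyrosine motifs in their tails, Slamf7 differed most. SLAMF7 signals through EAT-2 and in mouse macrophages has been linked to the uptake of blood-derived tumour cells. Its log2 levels were 8.85, 8.46 and 8.82 in Tet2-/- arrays and 9.14, 9.11 and 9.15 in wild-type arrays. All Tet2-/- arrays, replicate 6 included, lay below the wild-type arrays, which spanned only 0.04. Slamf7 differed by -0.42 (SE 0.146, 0.746-fold, limma adjusted p = 0.998), and -0.48 without Tet2-/- replicate 6.

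Ly9, or CD229, is a self-binding receptor of lymphocytes and myeloid cells. It had log2 levels of 7.60, 7.62 and 7.45 in Tet2-/- arrays and 7.85, 7.68 and 7.71 in wild-type arrays, without overlap. Cd84, a self-binding receptor of myeloid cells, platelets and lymphocytes, had 9.78, 9.79 and 9.87 in Tet2-/- arrays and 9.93, 9.93 and 9.92 in wild-type arrays, again without overlap. For both genes the gap between the groups was small. The differences were -0.19 for Ly9 and -0.11 for Cd84, and neither passed (limma adjusted p = 0.998 each).

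Slamf6, or Ly108, is a self-binding receptor best studied on T, B and natural killer cells. Its log2 levels were 3.22, 3.68 and 3.28 in Tet2-/- arrays and 3.62, 3.38 and 3.31 in wild-type arrays, which overlapped. Slamf1, or CD150, is a sensor of Gram-negative bacteria in mouse macrophages. It lay at 1.15, 1.34 and 1.39 in Tet2-/- arrays and 1.16, 1.26 and 1.52 in wild-type arrays, below the lower quartile in all 6 arrays. The other 8 genes, Cd244a included, were above the array median in all 6. For Slamf6 and Slamf1 the differences were -0.04 and -0.02, with 95% confidence intervals of -0.42 to 0.33 and -0.35 to 0.31. Their sign changed when single arrays were left out. A small difference in Slamf1 could not be seen this near the low end of the scale, where the RMA method compresses differences.

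Slamf8 and Slamf9 encode the members with short tails that lack the tyrosine motifs. Slamf8, a myeloid receptor that in mouse macrophages restrains the NADPH oxidase, had log2 levels of 5.55, 4.96 and 5.87 in Tet2-/- arrays and 5.93, 6.43 and 6.47 in wild-type arrays. Every Tet2-/- array was below every wild-type array, with a gap of 0.06 between Tet2-/- replicate 6 and wild-type replicate 4. The means were 5.46 ± 0.462 in Tet2-/- and 6.28 ± 0.301 in wild-type cells (SD, n = 3 each). Slamf8 differed by -0.82 (SE 0.244, 0.568-fold, limma adjusted p = 0.998). Its difference became -1.02 when Tet2-/- replicate 6 was left out and -0.57 when replicate 5 of that genotype was. Of all probe sets, 0.182% had a negative difference of at least this size.

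Slamf9, a receptor of myeloid cells, had log2 levels of 7.61, 7.27 and 6.87 in Tet2-/- arrays and 6.91, 6.95 and 6.98 in wild-type arrays. Tet2-/- replicates 4 and 5 were above the wild-type arrays and replicate 6 was below them, so the groups overlapped. The difference was 0.30 (95% confidence interval -0.12 to 0.73, limma adjusted p = 0.998). Leaving out Tet2-/- replicate 6 gave 0.49, and leaving out replicate 4 of the same genotype gave 0.12.

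Taking the 8 genes other than Cd244a, 6 had a negative and 2 a positive difference, with a median of -0.08, against a median of 0 over all probe sets. In 4 of the 8 (Slamf7, Slamf8, Ly9 and Cd84), or 50% of them, every Tet2-/- array lay below every wild-type array, which held for 4.07% of all probe sets. The reverse held for 0 of the 8 and for 3.33% of all probe sets. By limma's moderated test 0 of the 8 passed an adjusted p of 0.05, as did 0% of all probe sets. At an unadjusted p under 0.05 there were 2 of the 8, Slamf7 and Slamf8, against 3.61% of all probe sets. Without Tet2-/- replicate 6 the adjusted test called 19 probe sets, or 0.0754%, and still 0 of the 8. These counts describe genes of a family that share a chromosome region and cells of origin, and are no test of the family.

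**Figure D2:**
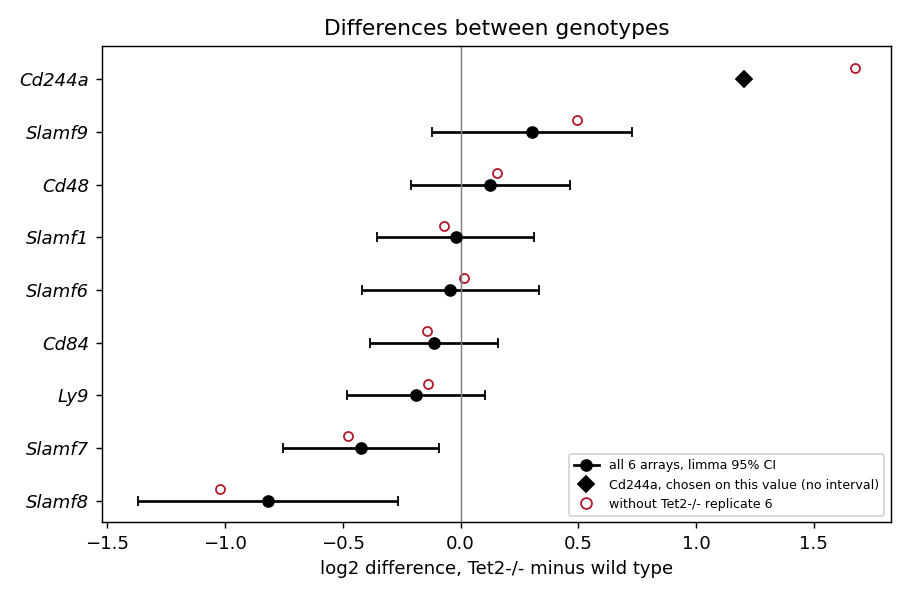
Log2 difference between Tet2-/- and wild-type arrays for the 9 genes, ordered by size. Filled circles with bars are limma estimates from all 6 arrays with 95% confidence intervals, the diamond is Cd244a without an interval, and open red circles leave out Tet2-/- replicate 6. The intervals of Slamf7 and Slamf8 lie below 0, though neither passed adjustment, and leaving out the array moved Cd244a to 1.67 and Slamf8 to -1.02.

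The windows from 250 bases before to 50 bases after the annotated start were read from RefSeq (GRCm38.p6) for 8 of the 9 genes, all but Ly9. Sequences are shown for Cd244a and for Slamf7, Cd84 and Slamf8, which lay in the opposite direction, because their windows share a motif. Capitals mark TGANTCA, the core bound by AP-1 factors, which reads the same on both strands. The windows, 5′ to 3′ on the gene's strand, are chr1:171558943-171559242 on the plus strand for Cd244a, chr1:171648950-171649249 on the minus strand for Slamf7, chr1:171839447-171839746 on the plus strand for Cd84 and chr1:172590519-172590818 on the minus strand for Slamf8.
Cd244a: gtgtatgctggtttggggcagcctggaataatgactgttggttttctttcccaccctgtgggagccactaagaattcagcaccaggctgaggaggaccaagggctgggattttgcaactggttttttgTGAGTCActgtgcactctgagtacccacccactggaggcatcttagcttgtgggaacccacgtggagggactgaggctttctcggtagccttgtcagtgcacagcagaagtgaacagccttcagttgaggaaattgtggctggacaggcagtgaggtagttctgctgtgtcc
Slamf7: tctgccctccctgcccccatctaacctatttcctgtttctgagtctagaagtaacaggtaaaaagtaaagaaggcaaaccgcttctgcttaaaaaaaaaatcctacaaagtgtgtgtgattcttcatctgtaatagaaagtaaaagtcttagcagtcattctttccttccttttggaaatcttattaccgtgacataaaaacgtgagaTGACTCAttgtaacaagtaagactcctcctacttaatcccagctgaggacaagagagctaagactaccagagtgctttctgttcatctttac
Cd84: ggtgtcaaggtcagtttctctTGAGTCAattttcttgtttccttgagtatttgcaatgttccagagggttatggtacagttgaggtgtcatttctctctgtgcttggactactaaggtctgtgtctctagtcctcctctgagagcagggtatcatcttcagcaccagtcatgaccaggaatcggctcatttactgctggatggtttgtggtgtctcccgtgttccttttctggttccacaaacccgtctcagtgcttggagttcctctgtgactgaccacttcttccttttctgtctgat
Slamf8: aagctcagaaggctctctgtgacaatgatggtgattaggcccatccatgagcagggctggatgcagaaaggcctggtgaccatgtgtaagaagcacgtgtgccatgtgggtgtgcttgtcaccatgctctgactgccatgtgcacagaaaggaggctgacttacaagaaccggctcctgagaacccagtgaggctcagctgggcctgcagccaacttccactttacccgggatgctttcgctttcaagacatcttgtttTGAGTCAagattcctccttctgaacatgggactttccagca

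The motif began 122 bases before the start in Cd244a, 42 before it in Slamf7, 229 before it in Cd84 and 9 bases after it in Slamf8. It was held by 4 of the 8 windows, and by 7.81% of all 32851 promoter windows of this length. GAGGAA, the core bound by the macrophage factor PU.1, was searched on both strands and was held by 4 of the 8 windows (Cd244a, Cd84, Slamf9 and Slamf8), and by 28.3% of all windows. CG, the dinucleotide at which cytosine is methylated, occurred 1 to 7 times per window in the 8 genes, with 2 in Cd244a, 3 in Slamf7 and 4 in Slamf8, against a median of 7 over all windows. No TGANTCA match overlapped a match of the other motifs. The windows of Cd48, Slamf1, Slamf6 and Slamf9 held no TGANTCA. A match describes these letters only, since neither binding nor methylation was measured here.

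The family lies in a cluster on mouse chromosome 1. In the RefSeq gene order Cd244a, Ly9, Slamf7, Cd48, Slamf1, Cd84 and Slamf6 follow each other without another measured gene between them, and Slamf9 and Slamf8 lie farther along. Differences did not follow that order: Cd244a, at 1.20, stood beside Ly9 at -0.19 and Slamf7 at -0.42. Of 28 measured neighbours, taken among the family and 5 to either side, 18 had a positive and 10 a negative difference. Their median was 0.04, and 0 of them passed the adjusted test. Of the 28, 4 had all Tet2-/- arrays above wild-type and 1 had all below, which held for 3.33% and 4.07% of all probe sets.

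The neighbour with the largest difference was F11r, which encodes junctional adhesion molecule A and lies 3 measured genes before Cd244a. Its log2 levels were 6.65, 6.58 and 5.43 in Tet2-/- arrays and 5.34, 5.10 and 5.39 in wild-type arrays. As for Cd244a, Tet2-/- replicates 4 and 5 were more than 1 log2 unit above wild-type, but for F11r replicate 6 was also just above the wild-type arrays. F11r differed by 0.94 (SE 0.297, limma adjusted p = 0.998). Without Tet2-/- replicate 6 it was 1.34 and F11r was among the 19 probe sets called (limma adjusted p = 0.0307, and 0.0307 to 1 over the settings tried). Alyref2 and Itln1, the measured genes between F11r and Cd244a, differed by 0.16 and 0.04.

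At the far end, Vsig8, the measured gene before Slamf8 and a member of the immunoglobulin superfamily, had log2 levels of 4.30, 4.20 and 4.88 in Tet2-/- arrays and 5.27, 5.09 and 5.06 in wild-type arrays. Like Slamf8 it had every Tet2-/- array below wild-type, and it differed by -0.68 (-0.89 without Tet2-/- replicate 6, limma adjusted p = 0.998 with all arrays). The RefSeq spans of Vsig8 and Slamf8 do not overlap. Vangl2, a planar cell polarity gene next to Slamf6, differed by 0.46 and Igsf8, an immunoglobulin superfamily gene, by -0.29.

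**Figure D3:**
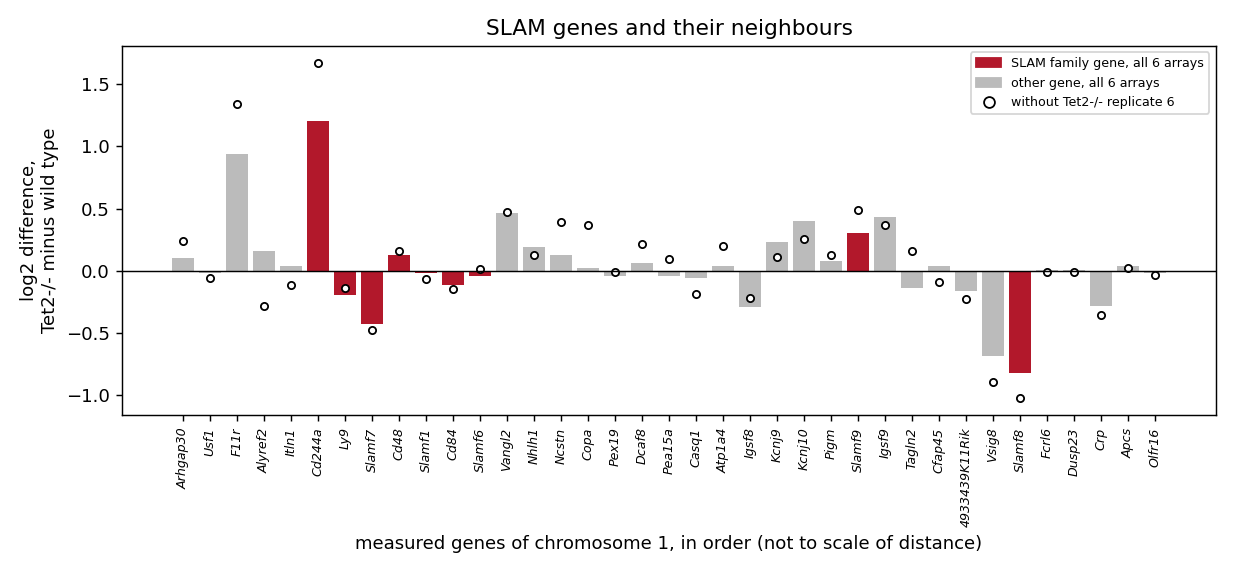
Log2 difference between Tet2-/- and wild-type arrays for 37 measured genes of chromosome 1 in RefSeq order, 9 SLAM family genes in red and 28 neighbours in grey. Bars use all 6 arrays and open circles leave out Tet2-/- replicate 6. F11r at 0.94 and Cd244a at 1.20 stand up near the start, and Vsig8 at -0.68 and Slamf8 at -0.82 point down near the end, with smaller differences between them.

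The adaptors through which SLAM receptors signal were examined next. Sh2d1b1, which encodes EAT-2, the adaptor of natural killer and antigen-presenting cells, had log2 levels of 4.32, 3.81 and 3.74 in Tet2-/- arrays and 4.54, 4.93 and 4.25 in wild-type arrays. Only Tet2-/- replicate 4 reached into the wild-type range, and the gene differed by -0.62 (SE 0.216, limma adjusted p = 0.998), or -0.51 without Tet2-/- replicate 6. Sh2d1b2, a close relative of Sh2d1b1 in mice, differed by -0.32, and because the transcripts are alike the array may not keep them apart. Sh2d1a, which encodes SAP, the adaptor of T and natural killer cells, was below the lower quartile in every array, at 1.30 ± 0.171 in Tet2-/- and 1.34 ± 0.133 in wild-type cells (SD, n = 3 each).

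Of the 24 listed adaptors, kinases, phosphatases and partners of SLAM signalling, 21 were measured. Of these, 11 had a positive and 10 a negative difference, with a median of 0.003 (0.235 without Tet2-/- replicate 6), and 0 passed in either direction. At an unadjusted limma p under 0.05 there were 0 higher and 2 lower, against 3.61% of all probe sets in either direction. Besides Sh2d1b1, Lat, an adaptor of T-cell receptor signalling, differed by -0.63 (-0.89 without Tet2-/- replicate 6). The kinase gene Csk, which restrains Src kinases, differed by 0.37, and Inpp5d, the phosphatase SHIP1 that CD244 can recruit, by 0.36. Csk was at 7.74, 7.23 and 6.70 in Tet2-/- arrays and 6.81, 6.75 and 7.0 in wild-type arrays, and Inpp5d at 7.58, 8.09 and 6.86 against 7.65, 6.68 and 7.12. For both, Tet2-/- replicate 6 was below the other Tet2-/- arrays, and the differences without it were 0.63 and 0.685.

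Related receptors were counted in the same way. Of 5 measured members of a list of CD2-type and adhesion receptors, 4 had a positive difference (median 0.16) and 0 passed. Apart from F11r these were Icosl, the ligand of the T-cell co-stimulator ICOS, at 0.48, Cd2, a receptor for CD48 in mice, at 0.16 and Havcr1 at 0.06. Jaml, at -0.08, was the exception. Of 14 other activating and inhibitory receptors and signalling chains, 4 were positive and 10 negative (median -0.05), and 0 passed. The largest differences among them were 0.33 for Pilra, -0.29 for the inhibitory receptor gene Cd200r1, -0.28 for the signalling chain gene Tyrobp, and -0.21 for the inhibitory receptor gene Cd300a.

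The genes most like Cd244a over the 6 arrays were found by the root mean square distance between log2 levels centred on each gene's mean, among 23184 other named genes. They were Tmem176b at a distance of 0.113, Icam2 at 0.114, Lbp at 0.172, Tmem176a at 0.185 and Cx3cr1 at 0.210. Tmem176b, which encodes an intracellular cation channel, had log2 levels of 7.62, 7.74 and 6.21 in Tet2-/- arrays and 6.17, 6.01 and 5.91 in wild-type arrays. Icam2, which encodes an adhesion molecule, had 6.70, 6.64 and 5.02 in Tet2-/- arrays and 5.36, 5.09 and 4.72 in wild-type arrays. As for Cd244a, replicates 4 and 5 were high and replicate 6 lay close to or within the wild-type levels. The patterns of Lbp, which encodes the lipopolysaccharide-binding protein, Tmem176a, the partner of Tmem176b, and Cx3cr1, the fractalkine receptor gene, gave differences of 1.02, 1.05 and 1.11. Likeness was read from the same 6 arrays on which Cd244a was selected, so it is a description and carries no test. Within the family, Slamf9 was nearest to Cd244a, at 0.571 with 545 named genes nearer, and Slamf8 was farthest, at 1.27.

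Markers of other cells that a peritoneal sample could hold were set beside Cd244a. Natural killer cells are known for CD244, and of 11 measured natural killer markers 7 had a positive and 4 a negative difference (median 0.03, -0.10 without Tet2-/- replicate 6). Their mean log2 level, centred over the 6 arrays, was -0.08 and -0.15 in Tet2-/- replicates 4 and 5, where Cd244a was high, 0.20 in replicate 6, and between -0.03 and 0.07 in wild-type arrays. The summed linear signal was 41.7 to 54.3 in Tet2-/- and 45.1 to 47.4 in wild-type arrays. In every array 10 of the 11 were below the median of all probe sets, and Gzma, Klrc1, Klre1 and Klrk1 were below the lower quartile.

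Of 11 T-cell markers, 8 had a positive and 3 a negative difference (median 0.08, -0.07 without Tet2-/- replicate 6), and 8 were below the array median in all 6 arrays. Their centred mean was -0.02, -0.07 and 0.20 in Tet2-/- arrays and between -0.13 and 0.02 in wild-type arrays, with a summed signal of 55.6 to 70.3 in Tet2-/- and 53.9 to 58.6 in wild-type arrays. Of 11 mast cell markers, 6 were positive and 5 negative (median 0.03), the summed signal was 47.3 to 52.4 in Tet2-/- and 48.6 to 50.5 in wild-type arrays, and Fcer1a, Ms4a2, Mcpt4, Mrgprb1 and Mrgprb2 were below the lower quartile everywhere. The centred mean of the mast cell markers was -0.05, 0.07 and 0.002 in Tet2-/- replicates 4, 5 and 6 and between -0.04 and 0.03 in wild-type arrays. The T-cell list was not high in Tet2-/- replicates 4 and 5, and the mast cell list was highest in replicate 5 and lowest in replicate 4.

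Other lists were high in the arrays in which Cd244a was high. Of 16 measured markers of the resident large peritoneal macrophage, 14 had a positive and 2 a negative difference (median 0.64, 0.94 without Tet2-/- replicate 6). Their centred mean was 0.58, 0.92 and -0.50 in Tet2-/- replicates 4, 5 and 6 and between -0.57 and -0.06 in wild-type arrays, the same arrays being high as for Cd244a. Its summed signal was 916 to 2483 in Tet2-/- and 903 to 1340 in wild-type arrays, and 0 of the 16 were below the lower quartile throughout. Icam2, an adhesion molecule gene of that list, is among the genes most like Cd244a. Of 12 B-cell markers, 11 were positive and 1 negative (median 0.38, 0.53 without that array), at 0.23, 0.77 and -0.23 in Tet2-/- arrays and between -0.34 and -0.19 in wild-type arrays. The summed B-cell signal was 119 to 402 in Tet2-/- and 144 to 188 in wild-type arrays, and of the B-cell markers Ebf1 was below the lower quartile throughout. A sum weighs genes with high signal most, and Ighm was the highest of the list in Tet2-/- replicate 5, at 7.59. Ighm differed by 0.95, with overlap between the groups. Cd79a differed by 1.59, Cd79b by 1.55 and Ms4a1 by 1.07, and only Cd79b had every Tet2-/- array above wild-type. The negative B-cell marker was Cd22, at -0.80, with every Tet2-/- array below every wild-type array (limma adjusted p = 0.483).

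Of 12 monocyte and small peritoneal macrophage markers, 8 were positive and 4 negative (median 0.40, 0.62 without that array), at 0.17, 0.57 and -0.20 in Tet2-/- arrays and between -0.25 and -0.10 in wild-type arrays. Their summed signal was 512 to 1023 in Tet2-/- and 499 to 570 in wild-type arrays, and Cd226 was below the lower quartile throughout. The largest differences in this list went both ways. Plac8 differed by 1.77 and Ccr2 by 1.38, each with every Tet2-/- array above wild-type. Cx3cr1, which is also among the genes most like Cd244a, differed by 1.11, and its groups overlapped. Itgax differed by -1.49, with every Tet2-/- array below wild-type (limma adjusted p = 0.197). The eosinophil list ran the other way by signal, with Tet2-/- arrays below wild-type arrays, but this rested mainly on 1 gene, Siglecf. The summed signal of the list was 27.8 to 41.7 in Tet2-/- and 49.0 to 62.8 in wild-type arrays. The centred mean of the list was 0.03, -0.22 and -0.05 in Tet2-/- arrays and between 0.05 and 0.10 in wild-type arrays. Of the 6 eosinophil markers 3 had a positive and 3 a negative difference (median 0.01), and 5 were below the array median throughout. Siglecf, a lectin gene also expressed by some macrophages, was at 4.65, 3.58 and 4.12 in Tet2-/- arrays and 5.37, 5.58 and 5.02 in wild-type arrays. It differed by -1.21 (limma adjusted p = 0.879). The other eosinophil markers differed by -0.07 to 0.27, the highest being Il5ra, with every Tet2-/- array above wild-type. The medians of the plasma cell, neutrophil and dendritic cell lists were 0.05, 0.14 and 0.05, and that of the macrophage markers was 0.06. In Tet2-/- replicates 4, 5 and 6 the centred mean was 0.14, 0.26 and -0.29 for the macrophage markers. For the plasma cell list it was 0.05, 0.25 and -0.20, so replicate 6 was lowest in both. Wild-type arrays lay between -0.14 and 0.16 and between -0.11 and 0.07. In the neutrophil and dendritic cell lists replicate 6 was highest, at 0.23 and 0.09. Summed signals overlapped between Tet2-/- and wild-type arrays for these 4 lists. The part of these cell mixtures, and of the array titled Tet2-/- replicate 6, in the SLAM differences was not tested. No marker of any list passed the adjusted test with all 6 arrays.

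**Figure D4:**
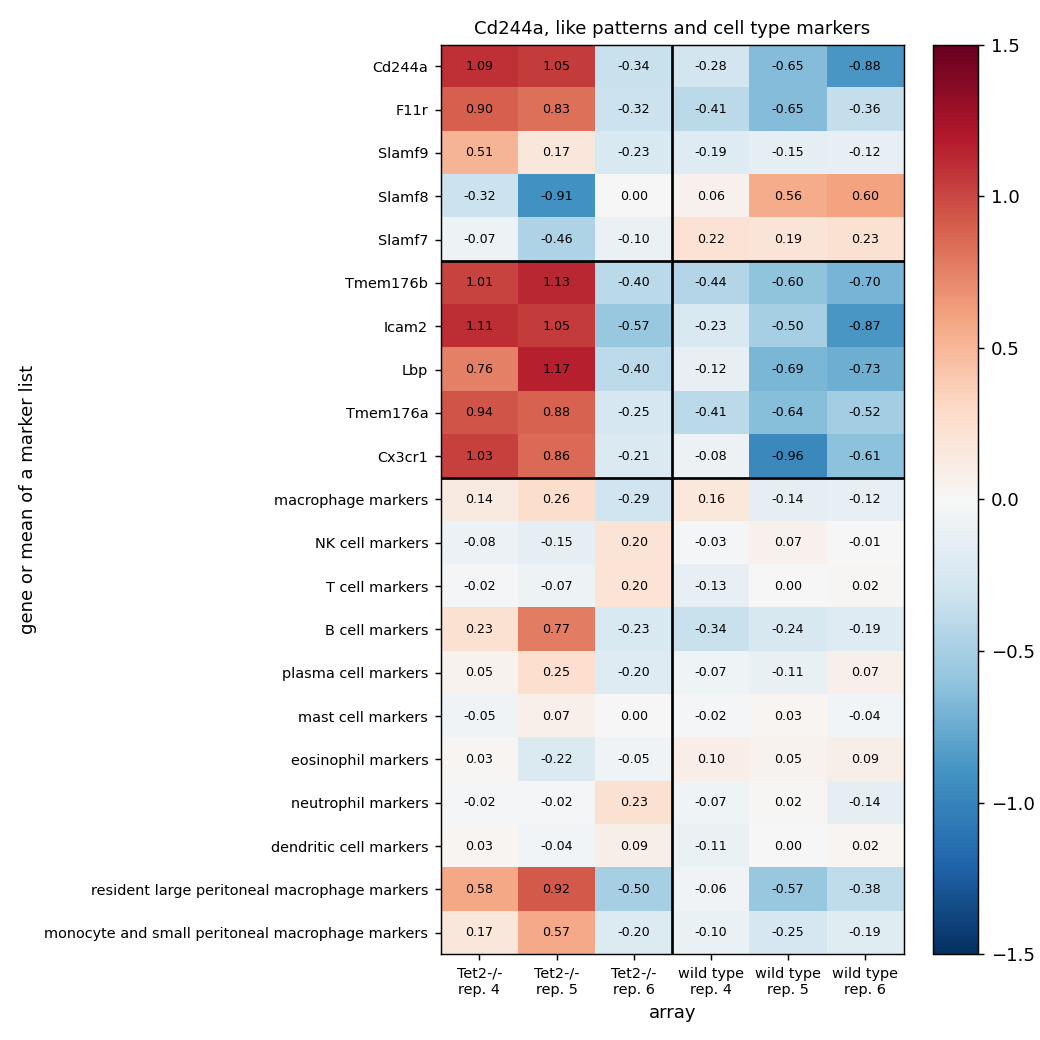
Log2 level minus the mean of the 6 arrays, by array, for 4 SLAM genes and F11r (top), the 5 genes most like Cd244a (middle) and the mean of each cell type marker list (bottom), with Tet2-/- arrays left of the line. Red is above and blue below the mean. Cd244a, F11r and the 5 like genes are red in Tet2-/- replicates 4 and 5 and blue in the other 4 arrays. The means of the resident macrophage, B-cell and monocyte lists run the same way, though not every gene in them does. Slamf8 and Slamf7 are blue in Tet2-/- replicates 4 and 5 and red in wild-type arrays.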

How the data were processed

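The deposited table gives the authors' log2 expression values for 25206 probe sets on 6 Affymetrix whole-transcript arrays. Per the submitters' processing notes, RMA (affy 1.36.1) was used, a method with background correction, quantile normalization and probe summary. The log2 scale follows from that method and the value range. It is not stated whether the arrays were processed together, and the background of each probe set is unknown. The number of arrays limits the precision. The platform annotation names 23185 probe sets and leaves 2021 unnamed.

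All probe sets were fitted with limma 3.58.1 (R 4.3.3, moderated two-sided test, no covariate, Benjamini-Hochberg threshold 0.05), after the script was tested on simulated data. Levels were called low against the 25th percentile and the median of each array. Marker signals were summed after undoing the log. Members, lists and named genes were chosen with earlier results of these data known. The naming rule took the 9 genes, up to 4 genes per list by absolute difference, the 3 Sh2d1 adaptors, the 5 genes most like Cd244a and 2 neighbours in each direction. In the cell type marker lists only some of the genes with the largest differences are named. Alyref2, Itln1, Havcr1, Itgam, Cd22 and the markers named as low were named after their values were seen. Sequences and gene order came from RefSeq GRCm38.p6. Other settings, including array weights, other normalizations and leaving out each array, are given in the closing section.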

Additional observations from a re-analysis of the deposited data

How the results depend on the processing

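With 3 arrays per genotype and contradicting genotype labels, every direction rests on the titles. Without Tet2-/- replicate 6, 19 probe sets passed the adjusted test, against 0 with all arrays, and leaving out single arrays gave 0 to 19, with 1 without wild-type replicate 4. Array weights gave 2. None of the 8 SLAM genes other than Cd244a passed under any setting, the threshold of 0.1 included. The Cd244a difference stayed between 0.96 and 1.67 when single arrays were left out and was 1.58 with array weights. Its direction turned with the genotype characteristic, to -0.32, as did those of Slamf1 (0.14), Slamf6 (0.083), Slamf8 (0.17), Slamf9 (-0.063), Ly9 (0.037), Cd84 (0.02) and F11r (-0.12), because that grouping exchanges samples. With the characteristic, Slamf7 and Cd48 kept their sign but shrank, from -0.42 to -0.03 and from 0.13 to 0.027. Slamf1 also turned without Tet2-/- replicate 4 (0.052) and wild-type replicate 6 (0.083), with -0.097 to 0.083 over all omissions, and Slamf6 without Tet2-/- replicate 4 (0.043), Tet2-/- replicate 6 (0.013) and wild-type replicate 4 (0.048), with -0.187 to 0.048 over all omissions. The cause was not tested. Single-array omissions gave -0.065 to 0.235 for the median of the SLAM signalling list. The trend, array weight, normalization and brightness settings kept the direction of every SLAM gene they measured; the brightness filter left out Slamf1. Medians of marker and related-receptor lists moved by more than the spread between replicates in 13 instances. The alternatives for F11r were added after seeing the data. The main fit did not pair samples by replicate number. Deviations of same-numbered arrays correlated at 0.15, -0.22 and 0.11, and those of differently numbered arrays at -0.36 to 0.36. With 3 arrays per genotype these values cannot decide whether the numbers mark pairs. With the replicate block 0 probe sets passed and the Cd244a difference stayed 1.20.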
